A study of Homo sapiens with 2 samples.

Results

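Interleukin-1 alpha and MCP-1 were read by 2 of the 507 antibodies on a human antibody array that captures cytokines, growth factors, receptors and other proteins. They were taken by antibody name, and both names matched 1 human gene each in the RefSeq gene table, IL1A and CCL2. The pair had been picked because values of these same arrays had shown both high on one array and near background on the other. Their difference between the arrays is therefore given as a description, without a test.

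By the sample labels, Su.86.86 cells, a human pancreatic cancer cell line grown with 10% fetal bovine serum, received either siNC, a control siRNA, or siJAG1, which targets JAG1. JAG1 encodes Jagged 1, a ligand of Notch receptors. Medium was taken 48 h later and 100 µL of it stayed on an array for 2 h. A streptavidin coupled to Cy3 made the captured protein visible. Each label had 1 array, so no replicate check, standard deviation or p-value between the groups could be given. Medium from fewer cells and less secretion per cell cannot be told apart in such samples, and no cell number was used here. The array carries 0 antibodies to Jagged 1 and 0 to keratins, so neither the knockdown nor the epithelial origin of the cells was checked on it.

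The labels of both arrays went against a second sheet deposited with them, which lists every single spot. It has 4 value columns, 2 headed for miR-124 (BX3mir-124 and Panc1_mir-124) and 2 ending in NC (Panc1_NC and BX3_NC), and none of these is a sample title. For 507 of 507 antibodies the siNC-labelled signal equalled the mean of the 2 spots headed Panc1_NC. For 507 of 507 the siJAG1-labelled signal equalled the mean of the 2 spots headed BX3_NC (tolerance 1e-06). Panc1 is the name of another pancreatic cancer cell line, and neither heading names JAG1. Both headings end in NC and differ in the name before it. Read by these headings, the arrays would differ in that name, with no JAG1 knockdown on either. Whether the arrays hold the transfected Su.86.86 cultures, or other cells, cannot be told apart from these files. Every direction below is that of the siJAG1-labelled array against the siNC-labelled array, and of nothing more. Where a pair of values is given, the first is from the siNC-labelled array.

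Interleukin-1 alpha is an alarm cytokine that epithelial cells make as a precursor and release when stressed or damaged. It binds the type 1 interleukin-1 receptor together with an accessory protein. The receptor antagonist IL-1 ra competes for that receptor, and the type 2 receptor acts as a decoy. MCP-1, also named CCL2, is a chemokine that draws monocytes through the receptor CCR2. Interleukin-1 signalling, which acts through NF-kappaB, is known to induce MCP-1 and several neutrophil-attracting chemokines in many cell types.

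Interleukin-1 alpha (antibody IL-1 alpha) gave a signal intensity of 51315 (siNC label) and 34580.5 (siJAG1 label). In relative expression, the authors' ratio in which positive controls stand at 1, these were 0.745 and 0.0374. The first is a bright reading, at rank 9 of 507 on its array, and the second is at rank 174. Against a floor of 0.2 in relative expression, a limit chosen after the values were seen, interleukin-1 alpha was lower by at least 3.72-fold on the siJAG1-labelled array. This bound holds for the authors' baseline and scaling only. Without the floor the log2 ratio was -4.31, whose size rests on a siJAG1-labelled reading near background and is not interpretable beyond the bound.

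MCP-1 gave a signal intensity of 51297.5 (siNC label) and 34526 (siJAG1 label). In relative expression it stood at 0.744 and 0.0353, at ranks 10 and 195. With the floor of 0.2, MCP-1 was lower there by at least 3.72-fold too, and its log2 ratio without the floor was -4.40, with the same limit on its size. The antibodies thus gave almost the same pair of readings. Antibodies differ in affinity, so equal readings do not show equal amounts of the 2 proteins.

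**Figure D1:**
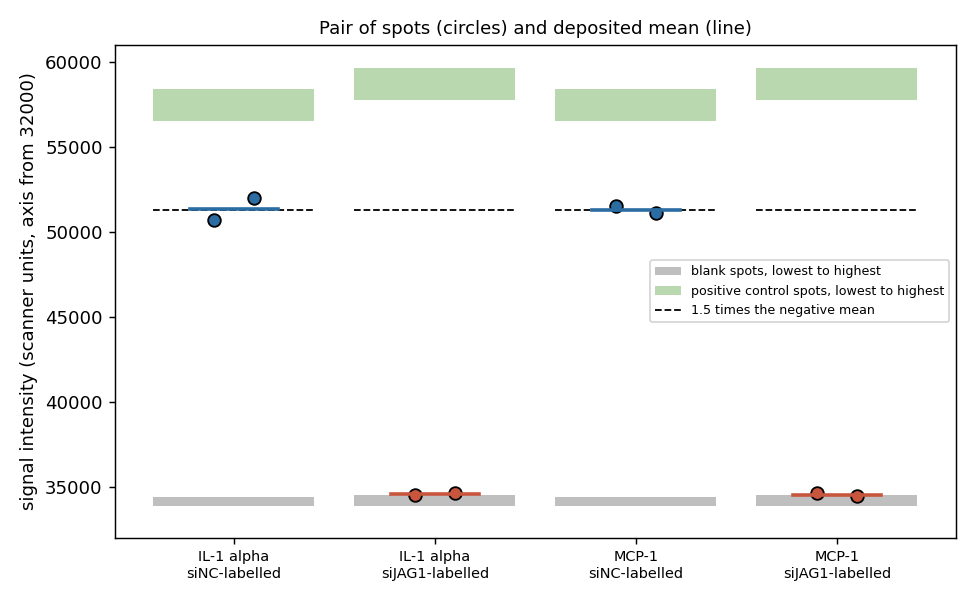
Signal intensity of the pair of spots (circles) and their deposited mean (coloured line) for both antibodies on each array, on an axis that does not start at 0. Grey bands span the 32 blank spots, green bands the 12 positive control spots, and the dashed line is 1.5 times the negative mean. On the siNC-labelled array the spots of each antibody lie on both sides of the dashed line. On the siJAG1-labelled array they lie at the top of the blank band or just above it.

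The single spots show the technical spread behind these values. For interleukin-1 alpha the spots headed Panc1_NC read 50664 and 51966, which is 0.718 and 0.772 in relative expression. The spots headed BX3_NC read 34544 and 34617. The pair differences of 1302 and 73 units compare with a difference of 16734.5 units between the arrays, and the pairs do not overlap. The pair headed Panc1_NC was wide for its array, where 96.4% of antibody pairs were closer.

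For MCP-1 the spots headed Panc1_NC read 51495 and 51100, or 0.753 and 0.736 in relative expression. The spots headed BX3_NC read 34617 and 34435. These pair differences were 395 and 182 units, against 16771.5 units between the arrays, and again the pairs do not overlap. Taking the closest and the farthest of the single spots, added after the data were seen, gave log2 ratios from -4.42 to -4.21 (interleukin-1 alpha) and from -4.57 to -4.24 (MCP-1). Spots on one slide share 1 sample of medium, so their spread says nothing about repeat cultures.

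On the siJAG1-labelled array both antibodies read close to the spots that carry no antibody. The 32 blank spots of that array ranged from 33897 to 34492, and their mean of 34178 is the value listed as the negative mean in the authors' sheet. Interleukin-1 alpha stood 402 units and MCP-1 348 units above that mean. Both interleukin-1 alpha spots lay above the highest blank spot, by at most 125 units, and 1 of the 2 MCP-1 spots lay within the blank range. Of all 507 antibodies, 299 had a mean at or below that highest blank. Whether either protein was present in the medium put on this array was therefore not resolved at this signal over background.

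On the siNC-labelled array the blank spots ranged from 33878 to 34396, with a mean of 34188. Interleukin-1 alpha stood 17127 units and MCP-1 17109 units above it. A further 16 spots named neg were printed beside the positive controls and were not part of the negative mean. They read from 35068 to 56592 under the siNC label and from 36710 to 57830 on the siJAG1-labelled array. The readings of both antibodies on the siNC-labelled array thus lay within the range of the neg spots, and those on the siJAG1-labelled array lay below it. Why the neg spots were bright was not tested.

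Both antibodies stood at the edge of the strict detection limit, which is 1.5 times the negative mean. On the siNC-labelled array that limit is a signal of 51282, or 0.744 in relative expression. Interleukin-1 alpha passed it by 32.8 units and MCP-1 by 15.3 units, both less than their pair differences. Of each pair, 1 spot was above the limit and 1 below, so detection by this limit rested on averaging. Just below the limit stood thrombospondin-1, a matrix protein that serum also holds, at 0.740 (siNC label) and 0.694 (siJAG1 label). Just above stood the neutrophil chemokine MIP 2, at 0.767 and 0.205. The floor of 0.2 was passed by both members with a wide margin.

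With the strict limit and a difference of at least 1.5-fold, 8 of 507 antibodies (1.58%) were lower on the siJAG1-labelled array and 3 (0.592%) were higher. The 2 members were among the 8. The floor of 0.2 was reached on at least 1 array by 39 antibodies (7.69%), among them both members. With it in place of the strict limit, 15 antibodies (2.96%) were lower and 7 (1.38%) higher. Because the members were picked from this same contrast, their place in those counts is no result about them. The split depended on scaling: when each array was divided by its own median it was 5 lower and 6 higher with the strict limit, and 8 lower and 15 higher with the floor. This scaling lifted the middle log2 ratio of all antibodies by 0.77, and both members stayed lower, at -3.55 and -3.63. Those ratios were taken without the floor, so their size is not interpretable. The lift also makes the bound against the floor smaller, and that bound was not recomputed. With no detection limit 296 antibodies (58.4%) were lower and 48 (9.47%) higher, so a 1.5-fold difference alone was common.

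**Figure D2:**
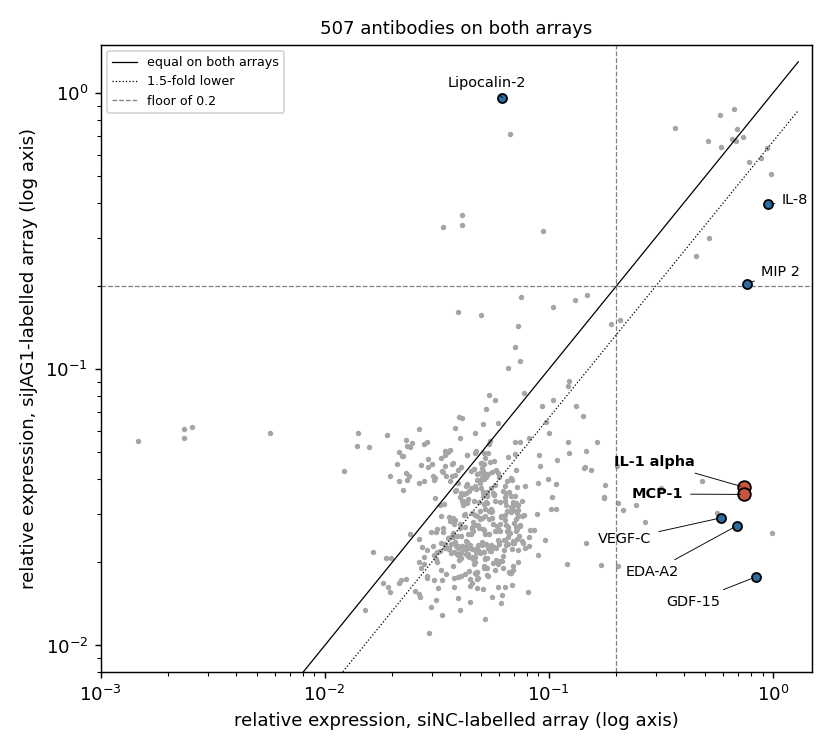
Relative expression of 507 antibodies on the siNC-labelled (horizontal) and siJAG1-labelled array (vertical), both on log axes. The solid line marks equal readings, the dotted line a 1.5-fold lower reading, and the dashed lines the floor of 0.2. Interleukin-1 alpha at 0.745 and 0.0374 and MCP-1 at 0.744 and 0.0353 (red) lie together at the lower right, near EDA-A2, GDF-15 and VEGF-C.

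The likeness of readings was measured as the straight-line distance between antibodies in the 2 relative expression values. The nearest antibody to interleukin-1 alpha was MCP-1, at a distance of 0.00230. For both members the next were EDA-A2, GDF-15, VEGF-C and MIP 2, in that order. EDA-A2, a TNF superfamily ligand, stood at 0.695 (siNC label) and 0.0272 (siJAG1 label). GDF-15, a stress-responsive cytokine, stood at 0.844 and 0.0177, and the lymphangiogenic factor VEGF-C at 0.588 and 0.0290. MIP 2 was the 1 of these that reached 0.2 on the siJAG1-labelled array. Only 2 arrays enter this distance, so it describes these readings and no wider pattern.

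Within its family, interleukin-1 alpha was the single ligand to reach 0.2, beside 7.69% of all antibodies. At so low a share, standing alone among few relatives is no trait particular to it. The array holds 9 antibodies to interleukin-1 family ligands, and the other 8 ranged from 0.0313 to 0.0638 under the siNC label and from 0.0205 to 0.0505 on the siJAG1-labelled array. IL-1 beta, the ligand that inflammasomes activate, stood at 0.0638 and 0.0378. The receptor antagonist IL-1 ra stood at 0.0427 and 0.0214. IL-1 F6, known also as interleukin-36 alpha, stood at 0.0345 and 0.0505, and IL-1 F9, interleukin-36 gamma, at 0.0529 and 0.0417. Of the 9 ligands, 1 passed the floor of 0.2 and was lower and 0 were higher, beside 2.96% and 1.38% of all antibodies. The 1 is interleukin-1 alpha itself, picked from this contrast, and the other 8 were not called. The median log2 ratio of the other 8 was -0.27, beside -0.78 for all antibodies. These readings are near background, and IL-18 and IL-33 have 0 antibodies of their own on the array.

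The 11 antibodies to interleukin-1 family receptors and binding proteins all read below 0.2 on both arrays. Of all antibodies, 7.69% reached that level on at least 1 array. Soluble receptor type 1, IL-1 sRI, stood at 0.0423 (siNC label) and 0.0181 (siJAG1 label). The decoy receptor IL-1 sRII stood at 0.0640 and 0.0162, and the accessory protein, IL-1 R3, at 0.0376 and 0.0175. The highest reading on either array was 0.0640. The median log2 ratio of the 11 was -1.10, against -0.78 for all antibodies, and 6 of the 11 read at or below the highest blank spot on the siJAG1-labelled array. On that array their low readings carry no order that could be told from background. On the siNC-labelled array they ranged from 0.0233 to 0.0640. The highest blank spot there stood at 0.0327 and the median antibody at 0.0509. Any order among the 11 was not tested.

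MCP-1 was likewise the single antibody among its closest relatives to reach 0.2, beside 7.69% of all antibodies. Here too, standing alone among few relatives is no particular trait. Of 7 antibodies to the MCP chemokines and eotaxins, 1 passed the floor and was lower and 0 were higher, beside 2.96% and 1.38% of all antibodies. The 1 is MCP-1 itself, picked from this contrast, and the other 6 were not called. MCP-2, which is CCL8, stood at 0.0555 (siNC label) and 0.0373 (siJAG1 label). MCP-3, which is CCL7 and also binds CCR2, stood at 0.0713 and 0.0432. MCP-4, which is CCL13, stood at 0.0265 and 0.0387. The 3 eotaxins, which attract eosinophils through CCR3, ranged from 0.0567 to 0.0602 and from 0.0204 to 0.0232.

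Among 16 other CC chemokines RANTES alone reached 0.2, at 0.204 (siNC label) and 0.0194 (siJAG1 label), beside 7.69% of all antibodies. RANTES, or CCL5, attracts T cells and monocytes, and against the floor of 0.2 it was not called. The 6Ckine antibody, which reads the lymphoid chemokine CCL21, followed at 0.132 and 0.0738. The 16 had a median log2 ratio of -0.85. The other CC chemokine antibodies thus read at most 0.204, beside 0.744 for MCP-1 under the siNC label.

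The 10 CC chemokine receptor antibodies also stayed below 0.2, a level that 7.69% of all antibodies reached. CCR2, the receptor of MCP-1, stood at 0.00255 (siNC label) and 0.0619 (siJAG1 label). CCR4, a receptor for other CC chemokines, gave the highest reading of the 10, at 0.155 and 0.0432. Readings of 0.00255 lie below the 0.0240 that the negative mean itself has on that array, so the log2 ratio of CCR2 is not interpretable. CCR1, CCR2 and CCR3 read lower on the siNC-labelled array and the other 7 read higher there. All 10 stayed below the floor, so this split is not interpretable as a pattern of the receptors.

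**Figure D3:**
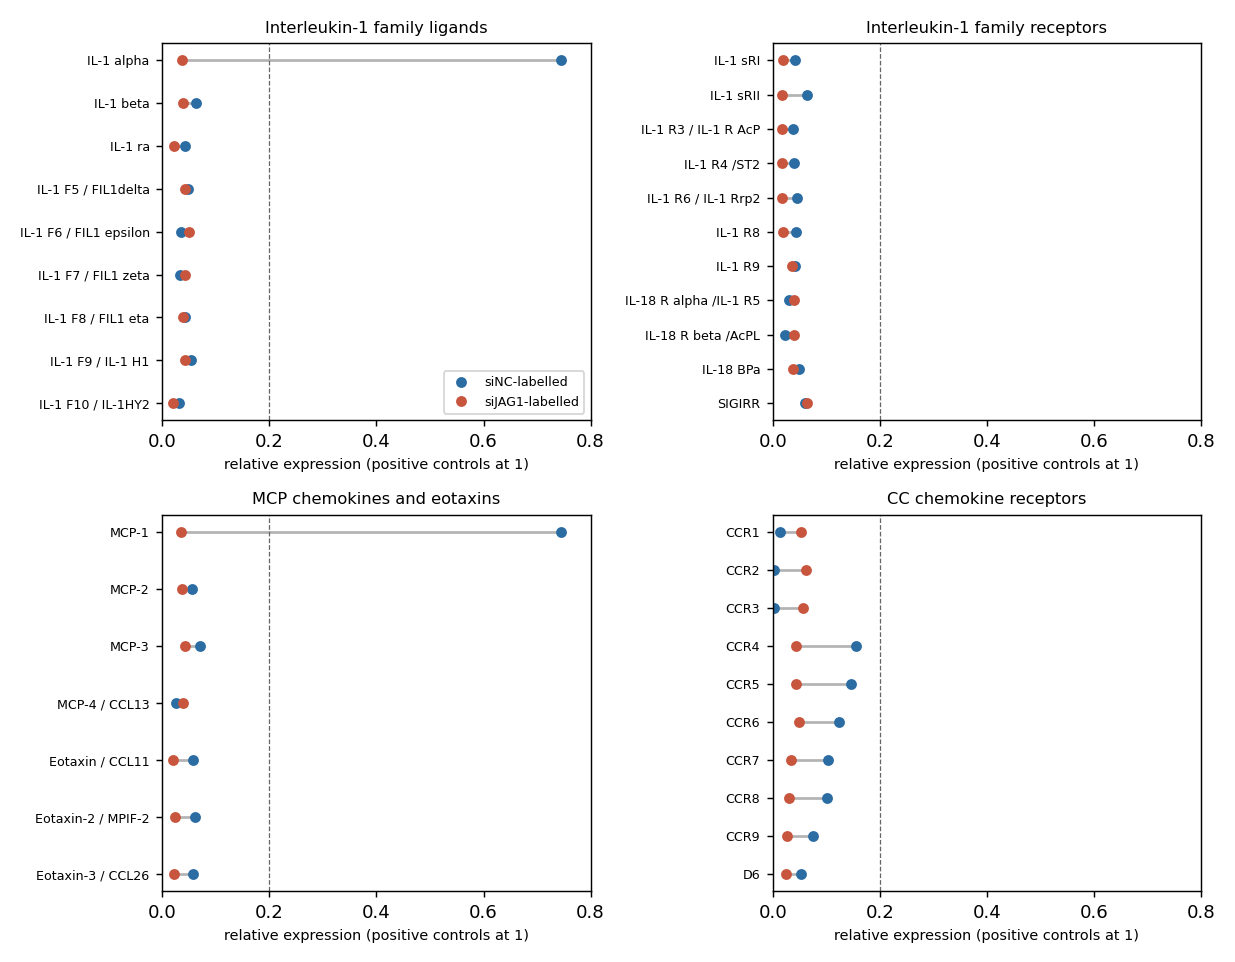
Relative expression on the siNC-labelled (blue) and siJAG1-labelled array (red) of the antibodies to interleukin-1 family ligands and receptors, MCP chemokines and eotaxins, and CC chemokine receptors, on linear axes. The dashed line is the floor of 0.2. Interleukin-1 alpha and MCP-1, at 0.745 and 0.744 on the siNC-labelled array, are the 2 points above it.

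Proteins that interleukin-1 is known to induce were read by 17 antibodies. Of these, 5 reached the floor of 0.2 on an array, beside 7.69% of all antibodies. The list was chosen with earlier results of these data known, so that share is no result about it. With the floor and the 1.5-fold limit, 2 of the 17 were lower on the siJAG1-labelled array and 1 was higher. The shares of all antibodies were 2.96% and 1.38%. IL-8, which draws neutrophils, stood at 0.948 (siNC label) and 0.396 (siJAG1 label). MIP 2 is given above, and GRO, an antibody to the CXCL1 group, stood at 0.947 and 0.635 and was not called. Lipocalin-2, an iron-siderophore binding protein, went the other way, at 0.0620 and 0.965. The median log2 ratio over these 17 was -0.78, as it was over all antibodies.

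The other 12 of these 17 antibodies stayed below the floor. IL-6 stood at 0.0696 (siNC label) and 0.0188 (siJAG1 label). GM-CSF, a growth factor for myeloid cells, stood at 0.0555 and 0.0220, and the collagenase MMP-1 at 0.0479 and 0.0397. The antibody to CXCL1 alone, GRO-a, stood at 0.0691 and 0.0193, unlike the group antibody GRO. Other neutrophil chemokines were also dim, with ENA-78 at 0.0434 and 0.0491 and GCP-2 at 0.0491 and 0.0287. The 4 Toll-like receptor antibodies read from 0.0385 to 0.0730 and from 0.0180 to 0.0294.

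Monocytes and macrophages also release interleukin-1 alpha and MCP-1, and their markers were read beside the members. Of 7 such antibodies, 0 reached 0.2, beside 7.69% of all antibodies. So small a list at so low a share cannot tell whether such cells were present. The 7 antibodies ranged from 0.0198 to 0.0763 under the siNC label and from 0.0173 to 0.0464 on the siJAG1-labelled array. Their summed levels were 0.325 and 0.213, beside 44.8 and 30.0 for all 507 antibodies. CD14 stood at 0.0729 and 0.0309, and CD163 at 0.0763 and 0.0335. Siglec-9 stood at 0.0570 and 0.0464, and M-CSF R at 0.0452 and 0.0427. The median log2 ratio of the 7 was -0.41, beside -0.78 for all antibodies. The medium also held bovine serum. Of 5 antibodies to proteins that serum holds, 3 reached 0.2, beside 7.69% of all antibodies. This list too was chosen with earlier results known. The summed levels of the 5 were 1.87 and 1.56, beside the same 44.8 and 30.0 for all antibodies. Thrombospondin-1 was close to equal on both arrays, as given above, endostatin stood at 0.513 and 0.674, and latent TGF-beta binding protein 1 at 0.483 and 0.0395. The part of serum in the readings of the members was not tested.

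The place of both antibodies on the slide was compared with their printed neighbours. Interleukin-1 alpha was printed in rows 15 and 16 of column 24, directly above IL-8, whose relative expression was 0.948 on the siNC-labelled array. On its left stood the IGF-II receptor at 0.245 and on its right IL-1 beta at 0.0638. On the siJAG1-labelled array IL-8 stood at 0.396, and interleukin-1 alpha beside it at 0.0374. The other 6 neighbours, leaving out IL-8 and the IGF-II receptor, read at most 0.108 on the siNC-labelled array. The part of the bright neighbour in the reading of interleukin-1 alpha was not tested.

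MCP-1 was printed in rows 23 and 24 of column 23, where 0 of its 8 neighbours reached 0.2, beside 7.69% of all antibodies. The 8 neighbours ranged from 0.0486 to 0.143 under the siNC label and from 0.0272 to 0.0679 on the siJAG1-labelled array. The highest was MMP-20, and MCP-2, printed directly to the right, stood at 0.0555 and 0.0373. The bright reading of MCP-1 was thus not shared by any antibody printed next to it. Antibodies with a mean below 0.2 in the same or adjoining columns had a median log2 ratio of -0.43 around interleukin-1 alpha (49 antibodies) and -0.63 around MCP-1 (50 antibodies). Over all 478 antibodies with a mean below 0.2 the median was -0.78. These sets were taken by a low mean, so they leave out bright antibodies, though the IGF-II receptor at 0.245 (siNC label) is among them. Ratios of readings near background can be large in either direction. These medians therefore describe dim antibodies only and were not used as a test of the members.

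**Figure D4:**
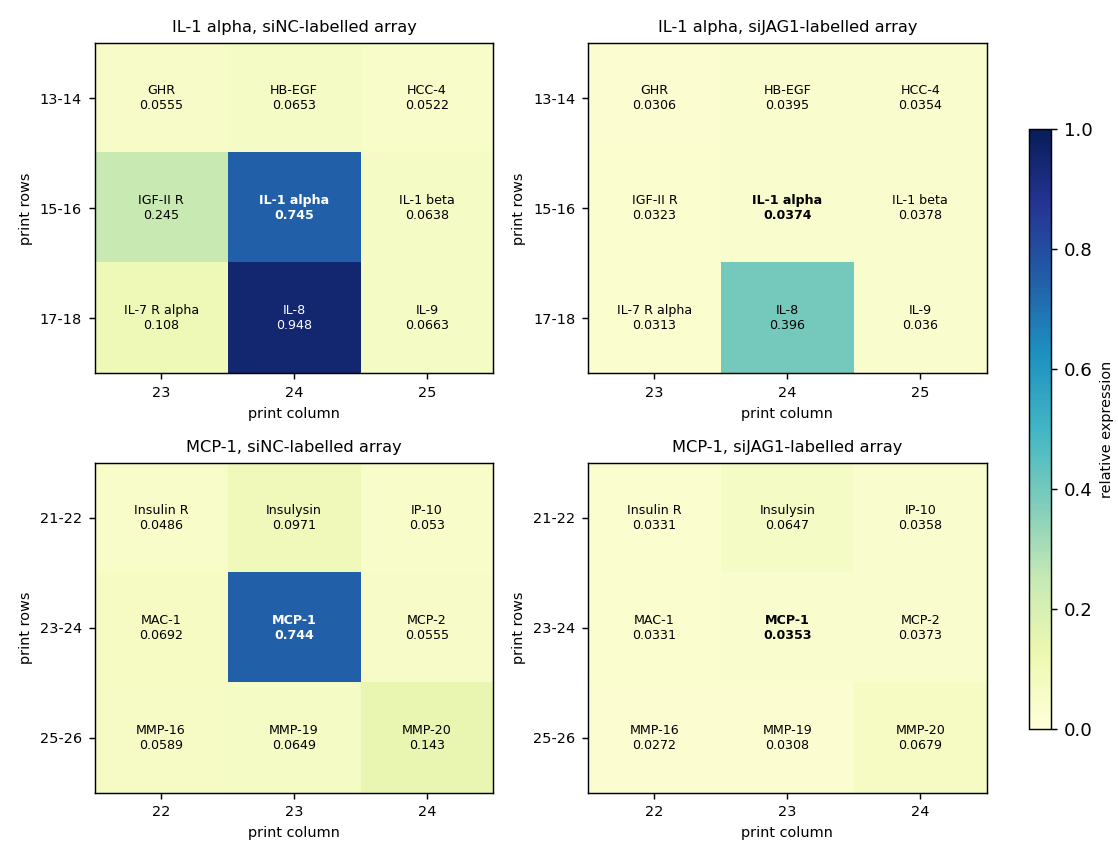
Relative expression of each member (centre, bold) and its 8 printed neighbours, with print column along the horizontal and print rows along the vertical axis, for both arrays. Colour runs from 0 to 1. On the siNC-labelled array interleukin-1 alpha at 0.745 adjoins IL-8 at 0.948, while the neighbours of MCP-1 at 0.744 read at most 0.143.

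The size of both ratios depended on the background that was taken off. The baseline in the authors' ratio was 33619 (siNC label) and 33644 (siJAG1 label), and each equals the lowest single spot under its heading. With the negative mean subtracted in its place, interleukin-1 alpha had a log2 ratio of -5.49 and MCP-1 one of -5.70. With raw signals and no subtraction it was -0.57 for both, which is 1.48-fold and 1.49-fold and just short of the 1.5-fold limit. With no subtraction and each signal over its positive control mean, an alternative added after the data were seen, it was -0.60 for both and past the limit. Positive controls read 1.68 and 1.72 times as bright as the negative mean, so unsubtracted ratios have little range. The direction was the same in all of these, but the pair had been picked for it.

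**Figure D5:**
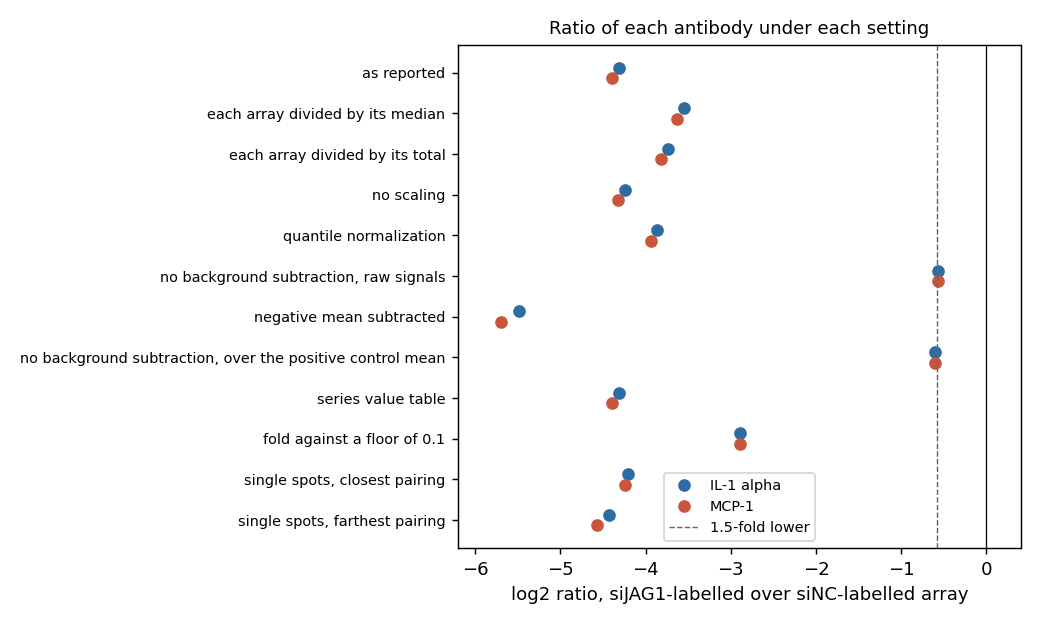
Log2 ratio of the siJAG1-labelled over the siNC-labelled array for interleukin-1 alpha (blue) and MCP-1 (red) under each setting. The dashed line is a 1.5-fold lower reading. All points lie left of 0, from -5.70 with the negative mean subtracted to -0.57 with raw signals, where both fall just short of the dashed line.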

How the data were processed

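Conditioned medium was read on 2 antibody arrays with 507 antibodies, 1 array per label. The deposited signal intensity is, by the values, the mean of 2 spots. The deposited relative expression is, by the values, the authors' ratio of signal minus a baseline over positive control mean minus that baseline, and the value table of the series repeats it rounded. What scanner and software were used is not given in the sources used here. A single-spot sheet, identical for both samples, has 4 value columns that match no sample label and were assigned to no sample. The 2 headed mir-124 were not used, and the other 2 were read only to trace the deposited values, their spot pairs and their blanks.

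Ratios were the siJAG1-labelled over the siNC-labelled array on the log2 scale with no pseudocount, computed with Python 3.11.15, numpy 2.4.6 and pandas 2.3.3. With 1 array per group no test was run. The members, lists, limits and floor were chosen with earlier results of these data known. Named besides the members were their printed neighbours, list members reaching 0.2 or otherwise up to 4 per list, and the 5 nearest antibodies. Some further dim list members and those next to the limit were added once values had been seen. The code for the baseline and call counts was run on simulated data, with no detection limit and no floor. Those signals were built from the same line that recovers the baseline, so this was a check of the code only. Alternatives were other scalings, backgrounds, floors and the value table. The 3 rows named Positive 2a to 2c were left out.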

Additional observations from a re-analysis of the deposited data

How the results depend on the processing

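Both log2 ratios kept their direction under all 11 alternatives. They stayed past the 1.5-fold limit under 10, and with raw signals and no background subtraction they did not, at -0.57 each. The pair had been picked for this direction, so keeping it is no test. Of the alternatives, the value table repeats the deposited values, and the single spots are those behind them. The count of alternatives is therefore a description of how the size moved. Apart from the floor of 0.1, these ratios were taken without a floor and rest on siJAG1-labelled readings near background. The bound of at least 3.72-fold was not recomputed under the scalings and backgrounds. Over all alternatives interleukin-1 alpha ranged from -5.49 to -0.57 and MCP-1 from -5.70 to -0.57. Against a floor of 0.1 both were lower by at least 7.45-fold and 7.44-fold. The counts of all antibodies also moved. With the strict limit, where 8 were lower and 3 higher as reported, division by the median gave 5 and 6, division by the total 6 higher, quantile normalization 5 higher, raw signals 2 and 1, and no detection limit 296 and 48. With the floor of 0.2, where 15 were lower and 7 higher, division by the median gave 8 and 15, quantile normalization 8 lower, division by the total 13 higher, and raw signals 0 and 1. An array below the floor could only count as the lower one in these. Raw signals leave a small range by construction. Division by the median or the total adds a fixed amount, 0.77 or 0.58, to every log2 ratio without a floor. Counts at the 1.5-fold limit therefore move with it by construction. The cause of the moves under quantile normalization was not tested. No paired analysis was possible because each group has 1 array, and for the same reason no array could be left out. Signal over background limits the siJAG1-labelled readings of both members, which stood within 403 units of the negative mean.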
